A study of Mus musculus with 48 samples.

Results

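The genes described here encode 9 enzymes of the liver that break down the aromatic amino acids and histidine: Tat, Hpd, Hgd and Fah of the tyrosine pathway, Tdo2, Kmo and Kynu of the kynurenine pathway of tryptophan, and Hal and Uroc1 of the histidine pathway. They were taken by gene symbol, with every probe set that carries the symbol, which gave 14 of the 45037 probe sets tested and 9 of 18193 genes. Levels are log2 values of the array signal after Robust Multichip Average (RMA) processing by the authors, so 1 log2 unit is a doubling, and the levels of different probe sets are not comparable with each other. Male C57BL/6J mice that arrived at 6 to 7 weeks of age ate chow for 2 weeks and then a high-fat diet low in protein relative to carbohydrate (L-P/C-HF, the lower-protein diet) during 10 weeks, and the 48 mice with the poorest glucose tolerance among 68 were kept. They went on with L-P/C-HF, which supplied 15% of energy from protein and 30% from carbohydrate, or were changed to H-P/C-HF, the higher-protein diet, with 30% from protein and 15% from carbohydrate, while fat made up 55% of energy in both. Livers were taken after 2 d or 4 wk, with 12 mice in each of the 4 groups and 1 array per mouse. The mice are a model of diet-induced obesity, and the untreated lean state is not among the groups. Duration cannot be told apart from age, day of death or a further glucose tolerance test after an overnight fast. Only the mice fed longer had that test. The paper reports that higher-protein mice took in less energy and gained less weight soon after the switch. It also reports a smaller weight gain over 4 wk, with an energy intake that was lower but not significantly so. Diet composition therefore cannot be told apart from weight gain at either duration, or from energy intake at the shorter one. The part of intake and weight gain in the enzyme levels was not tested. Array B25 came from a 2-d mouse of the H-P/C-HF diet and was left out because the study set it aside on quality, which left 47 arrays and 11 mice in that group. The median signal of an array lay between 6.73 and 6.91. The median correlation of B25 with the other arrays was 0.978. The 3 retained arrays A01, A09 and A24 were close to it, at 0.979, 0.978 and 0.98, against 0.983 to 0.991 in the others. Array A09, of an L-P/C-HF 2-d mouse, held the lowest value of its group for several of the enzymes. Hepatocyte markers were high on every array, with a mean level over the 8 measured markers of 13.675 to 13.958.

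The liver is the main site at which surplus phenylalanine, tyrosine, tryptophan and histidine are degraded. Tat, tyrosine aminotransferase, starts tyrosine breakdown and is a classic gene induced by glucocorticoids and glucagon. Hpd then makes homogentisate, Hgd opens its ring, and Fah, which is lost in hereditary tyrosinemia, releases fumarate and acetoacetate. Tdo2 opens the ring of tryptophan to start the kynurenine pathway, Kmo hydroxylates kynurenine, and Kynu cleaves it or its hydroxylated form on the route to NAD. Hal, histidase, removes ammonia from histidine to give urocanate, and Uroc1, urocanase, carries out the next step.

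The 250 bases before the transcription start are shown for the 4 tyrosine enzymes because they serve 1 pathway and Hgd and Fah had the highest correlation from mouse to mouse of all member pairs. The sequences are from RefSeq on GRCm38.p6, 5′ to 3′ on the strand of the gene, and capitals mark every match to TATAAA (the TATA box, reverse complement TTTATA) or CCAAT (the CCAAT box, reverse complement ATTGG), searched on both strands. The Tat sequence lies at chr8:109990186-109990435 on the plus strand, that of Hpd at chr5:123182724-123182973 on the minus strand, that of Hgd at chr16:37579903-37580152 on the plus strand and that of Fah at chr7:84605943-84606192 on the minus strand.
Tat: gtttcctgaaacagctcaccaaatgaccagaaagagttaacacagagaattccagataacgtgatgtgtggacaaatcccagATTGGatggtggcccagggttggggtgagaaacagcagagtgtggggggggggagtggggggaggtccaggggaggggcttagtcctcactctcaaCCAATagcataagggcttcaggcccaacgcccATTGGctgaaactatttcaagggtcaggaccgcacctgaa
Hpd: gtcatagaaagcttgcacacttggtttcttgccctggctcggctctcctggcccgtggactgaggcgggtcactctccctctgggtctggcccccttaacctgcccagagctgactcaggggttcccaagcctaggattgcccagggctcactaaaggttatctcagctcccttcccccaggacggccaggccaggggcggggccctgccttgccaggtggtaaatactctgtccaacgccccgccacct
Hgd: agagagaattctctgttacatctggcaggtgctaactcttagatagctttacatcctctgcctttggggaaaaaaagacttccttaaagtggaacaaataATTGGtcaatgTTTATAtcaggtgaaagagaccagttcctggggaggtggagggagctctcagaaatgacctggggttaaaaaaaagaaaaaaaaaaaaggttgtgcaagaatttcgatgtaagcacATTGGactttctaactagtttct
Fah: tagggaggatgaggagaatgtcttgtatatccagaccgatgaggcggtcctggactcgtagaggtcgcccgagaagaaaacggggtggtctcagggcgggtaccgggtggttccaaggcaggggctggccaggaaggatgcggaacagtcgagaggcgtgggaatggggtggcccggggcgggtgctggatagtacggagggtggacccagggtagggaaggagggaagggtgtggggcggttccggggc
The 4 sequences differ in composition, since G and C made up 53.6% of Tat, 62.8% of Hpd, 38.8% of Hgd and 64.4% of Fah, against a median of 52.4% over 32851 promoters of the table. Tat held CCAAT at 3 places, Hgd held CCAAT at 2 places and TATAAA at 1, and neither motif was found in the windows of Hpd and Fah. Of all promoters of the same length, 33.8% held CCAAT and 12.4% held TATAAA on either strand. The half-sites TGTTCT of the glucocorticoid receptor (16.1% of promoters), GTTAAT of HNF1 (6.43%) and TGACG of the cAMP response element (17.8%) were searched in the same way and were in none of these 4 windows. These matches describe letters in a window and do not show binding. A promoter was matched for 8 of the 9 genes, all but Kynu.

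The first question was whether the diet switch moved these enzymes within 2 d. No member probe set passed an adjusted p of 0.05 (0 of 14), where 0.0133% of all probe sets did, by limma over 4 groups with Benjamini-Hochberg adjustment. At an unadjusted p under 0.05, 5 of 14 member probe sets differed and all 5 were higher in higher-protein mice, namely those of Tat, Hpd, Hal, the brighter one of Hgd and the dimmer one of Kynu, where 3.52% of all probe sets differed and 1.9% were higher. At an unadjusted p under 0.001, Hpd and Hgd passed (2 of 14), where 0.129% of all probe sets did. The log2 difference was above 0 for 12 of 14 member probe sets and for 53.3% of all. The median difference over the brightest probe set of each of the 9 genes was +0.17, and over all genes it was +0.01. Ordinary one-way ANOVA called 0 of the 14 after adjustment, and 0 of all 45037 probe sets. An approximation of the error pooling used in the study called 2, Hpd and Tat, at an adjusted p under 0.05. It called 147 of all 45037 probe sets there. The study itself set an unadjusted p of 0.001, a different threshold, and listed Kynu among its 2-d genes of tryptophan metabolism.

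**Figure D1:**
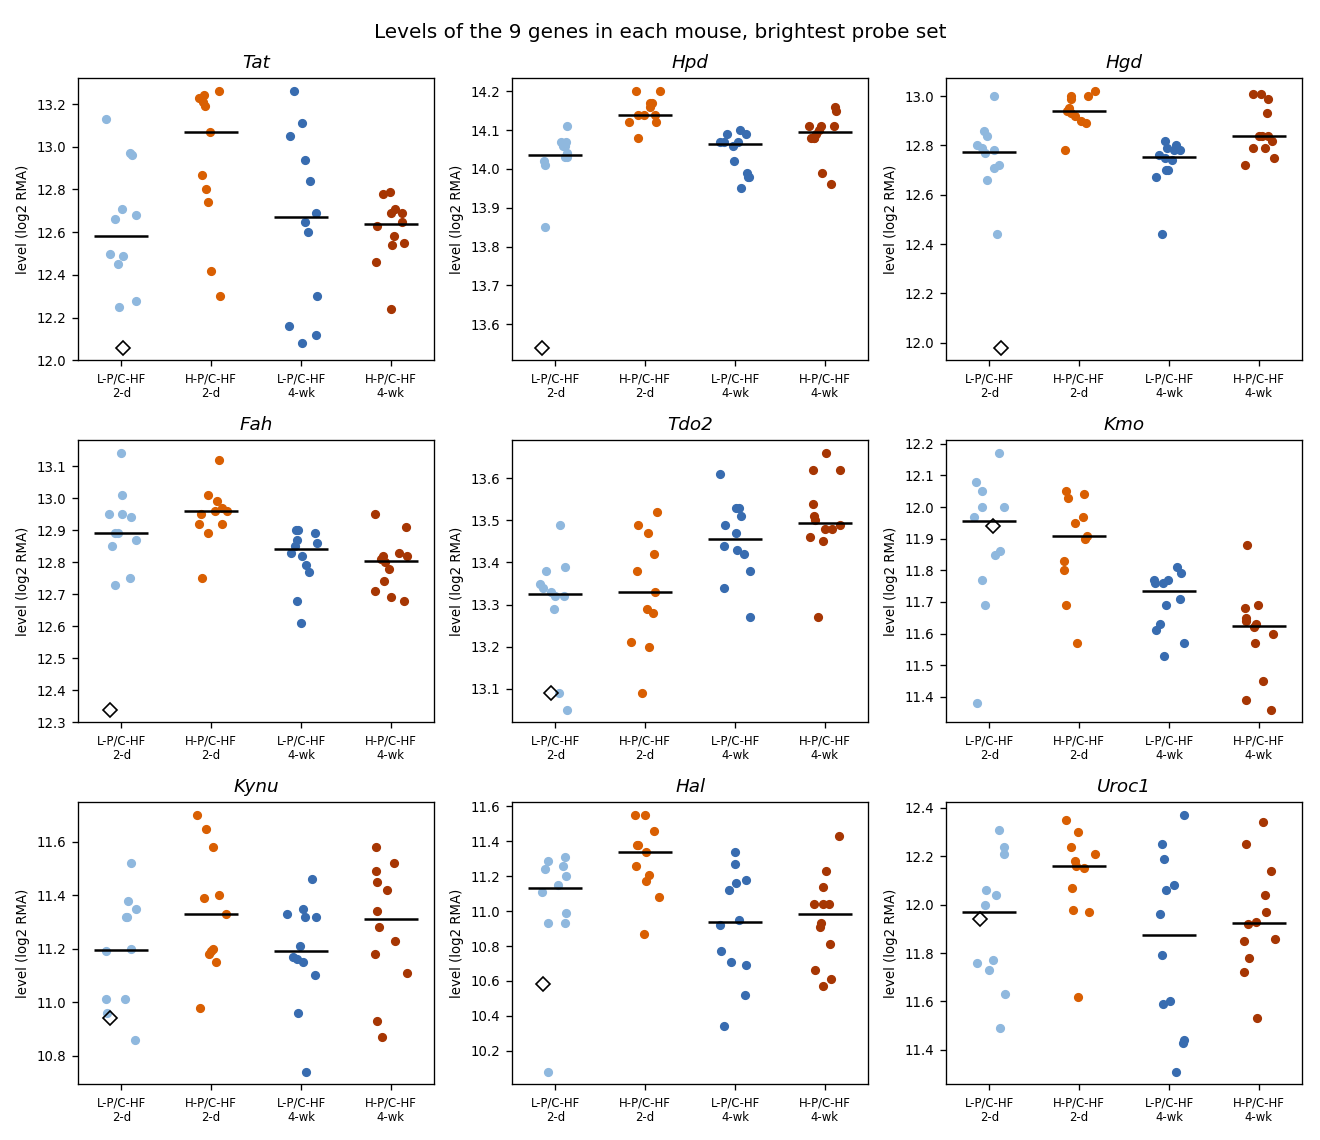
Levels of the 9 genes (log2 RMA, vertical axis, own scale in each panel) in every mouse of the 4 groups, through the brightest probe set of each gene. Each point is 1 of 47 mice, bars are group medians and the open diamond is mouse A09. Hpd and Hgd stand higher at 2-d on the H-P/C-HF diet, where 10 of 11 and 1 of 11 mice exceed the highest mouse on L-P/C-HF, and Kmo is lower at 4-wk.

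In the tyrosine pathway, Tat ranged from 12.06 through a median of 12.58 to 13.13 in lower-protein 2-d mice and from 12.30 through 13.07 to 13.26 in higher-protein 2-d mice. The ranges overlapped, and 9 of 11 higher-protein mice lay above the lower-protein median. The difference was +0.34 (SE 0.13, 1.27-fold, limma p = 0.0089, adjusted p = 0.9998). With B25 included, whose Tat level was 12.06, it was +0.27 (p = 0.045).

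Hpd, the dioxygenase that makes homogentisate, ranged from 13.54 through 14.04 to 14.11 in lower-protein 2-d mice and from 14.08 through 14.14 to 14.20 in higher-protein 2-d mice. The groups overlapped by a single higher-protein mouse, and the other 10 of 11 lay above the highest lower-protein mouse. The difference was +0.16 (SE 0.04, 1.12-fold, limma p = 0.000342, adjusted p = 0.399). The value of 13.54 belonged to A09, the next lowest mouse was at 13.85, and without A09 the difference was +0.12 (p = 0.000243). Hpd was among the brightest signals, near the highest value in the table, 14.81.

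Hgd, which opens the ring of homogentisate, ranged from 11.98 through 12.78 to 13 in lower-protein 2-d mice and from 12.78 through 12.94 to 13.02 in higher-protein 2-d mice by its brighter probe set. All 11 higher-protein mice lay above the lower-protein median, although the ranges overlapped. The difference was +0.24 (SE 0.06, 1.18-fold, limma p = 0.000465, adjusted p = 0.459), and without A09, the mouse at 11.98, it was +0.18 (p = 0.000518). The dimmer probe set of Hgd, near 8, showed a difference of 0.00 (p = 0.967), so the probe sets of this gene disagreed.

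Fah, the last enzyme of the pathway, ranged from 12.34 through 12.89 to 13.14 in lower-protein 2-d mice and from 12.75 through 12.96 to 13.12 in higher-protein 2-d mice. The higher-protein range lay inside that of lower-protein. The difference of +0.09 (95% confidence interval -0.02 to +0.20, limma p = 0.104) fell to +0.04 without A09, the lowest mouse (p = 0.337).

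In the tryptophan pathway, none of the 3 probe sets of Tdo2 reached an unadjusted p under 0.05 at 2-d. The brightest ranged from 13.05 through 13.33 to 13.49 in lower-protein mice and from 13.09 through 13.33 to 13.52 in higher-protein mice. The medians were level and the difference was +0.05 (95% confidence interval -0.06 to +0.15). The other Tdo2 probe sets gave +0.05 and +0.08.

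Kmo, a monooxygenase of the outer mitochondrial membrane, ranged from 11.38 through 11.96 to 12.17 in lower-protein 2-d mice and from 11.57 through 11.91 to 12.05 in higher-protein 2-d mice. Its difference was -0.01 (95% confidence interval -0.14 to +0.12). Kynu ranged from 10.86 through 11.20 to 11.52 in lower-protein and from 10.98 through 11.33 to 11.70 in higher-protein mice by its brighter probe set. That difference was +0.17 (SE 0.09, limma p = 0.0609). The dimmer probe set of Kynu, near the level of the median probe set at 6.65 and 6.93 in the group means, gave +0.28 (SE 0.10, p = 0.00888, adjusted p = 0.9998), with 10 of 11 higher-protein mice above the lower-protein median.

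In the histidine pathway, Hal ranged from 10.08 through 11.13 to 11.31 in lower-protein 2-d mice and from 10.87 through 11.34 to 11.55 in higher-protein 2-d mice. Above the highest lower-protein mouse lay 6 of 11 higher-protein mice. The difference was +0.29 (SE 0.12, 1.22-fold, limma p = 0.0163, adjusted p = 0.9998). Uroc1 ranged from 11.49 through 11.97 to 12.31 in lower-protein and from 11.62 through 12.16 to 12.35 in higher-protein mice by its brighter probe set. The groups overlapped over most of their range, and the differences of +0.18 (p = 0.101) and +0.17 (p = 0.092) for its probe sets were of like size.

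After 4 wk the differences were smaller on the whole. No member probe set passed an adjusted p of 0.05 (0 of 14), and neither did any probe set on the array (0%). At an unadjusted p under 0.05 only the brighter Hgd probe set passed (1 of 14), where 2.76% of all probe sets did. After adjustment ANOVA called 0 of 14 and 0 of all probe sets, and the pooled error called 0 of 14 and 129 of all 45037. By that probe set Hgd ranged from 12.44 through 12.76 to 12.82 in lower-protein mice and from 12.72 through 12.84 to 13.01 in higher-protein mice. Above the highest lower-protein mouse lay 7 of 12 higher-protein mice, and the difference was +0.13 (SE 0.06, limma p = 0.0401, adjusted p = 0.999).

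Hpd ranged from 13.95 through 14.07 to 14.10 in lower-protein 4-wk mice and from 13.96 through 14.10 to 14.16 in higher-protein 4-wk mice, and 10 of 12 higher-protein mice lay above the lower-protein median. Its difference was +0.05 (SE 0.04, limma p = 0.26). Tat ranged from 12.08 through 12.67 to 13.26 in lower-protein and from 12.24 through 12.64 to 12.79 in higher-protein mice. The higher-protein mice were the more uniform, with an SD of 0.15 against 0.41, and the difference was -0.04 (95% confidence interval -0.29 to +0.21).

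Kmo ranged from 11.53 through 11.74 to 11.81 in lower-protein 4-wk mice and from 11.36 through 11.63 to 11.88 in higher-protein 4-wk mice. Below the lower-protein median lay 11 of 12 higher-protein mice, and the difference was -0.10 (SE 0.06, limma p = 0.116). The remaining 10 probe sets differed by -0.02 to +0.16 at 4-wk, with the lowest value in Fah and the highest in the dimmer probe set of Kynu. Among them the dimmer probe set of Hgd differed by 0.00 (limma p = 0.986). The median over the 9 genes was +0.05, against -0.02 over all genes.

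**Figure D2:**
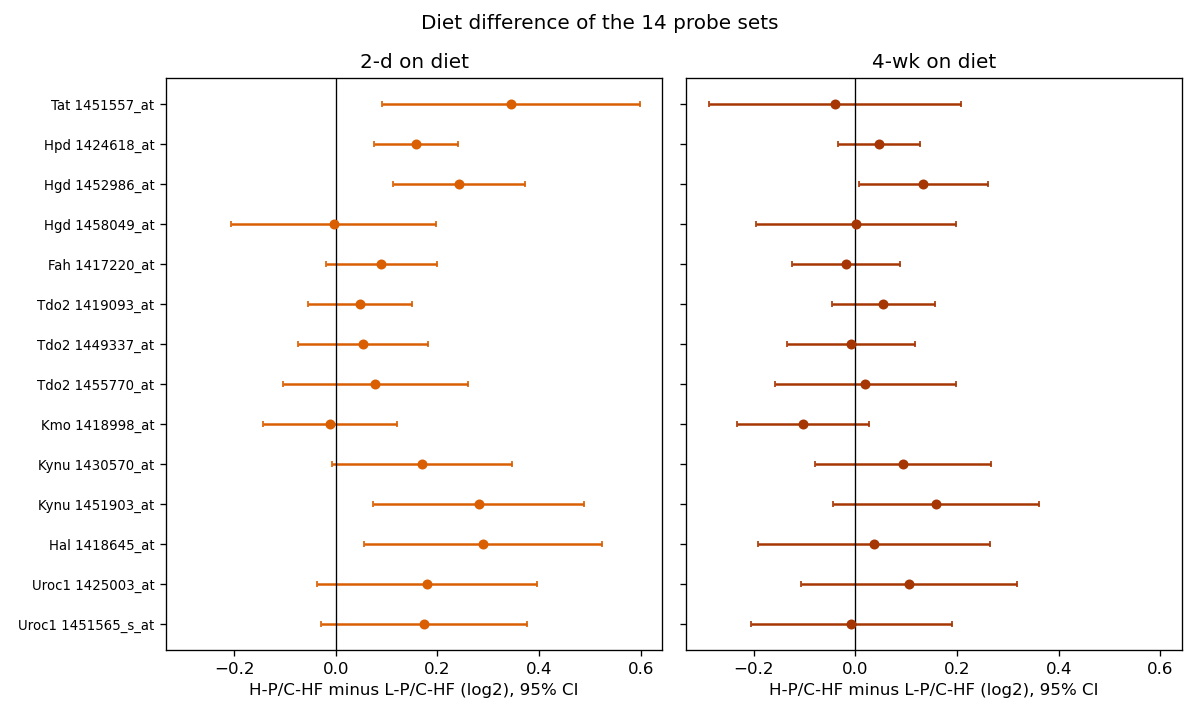
Log2 difference between the diets, with L-P/C-HF subtracted from H-P/C-HF, for the 14 probe sets at 2-d (left) and 4-wk (right), with 95% confidence intervals from limma. At 2-d the intervals of Tat, Hpd, Hal, the brighter Hgd and the dimmer Kynu probe set lie above 0, and at 4-wk that of the brighter Hgd probe set does.

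Whether the diet effect itself differed between durations was tested as the difference of the 2 contrasts. No member passed after adjustment (0 of 14, with 0% of all probe sets called), and Tat alone passed at an unadjusted p under 0.05 (1 of 14, where 1.63% of all probe sets did). Its diet difference was lower by 0.38 at 4-wk than at 2-d (log2 difference -0.38, SE 0.18, p = 0.0342, adjusted p = 0.9999). ANOVA called 0 of 14 and 0 of all 45037 probe sets. The pooled error called 1 of 14, which was Tat, and 67 of all. Averaged over both durations, the brighter Hgd probe set differed by +0.19 (SE 0.05, limma p = 0.000128, adjusted p = 0.148) and Hpd by +0.10 (SE 0.03, p = 0.000863, adjusted p = 0.365). The dimmer Hgd probe set differed by 0.00 (limma p = 0.986), so the Hgd difference rests on 1 of 2 probe sets. No member passed after adjustment there (0 of 14, where 0.0511% of all probe sets did). The brighter Hgd probe set passed without A09, a setting added after seeing the data, with a difference of +0.16 and an adjusted p of 0.0381. That adjusted p ranged from 0.00814 to 0.238 over the alternatives. At an unadjusted p under 0.05, 4 of 14 passed in this average, both probe sets of Kynu being the others (+0.13 and +0.22), where 4.56% of all probe sets did. This average uses the same mice as the separate contrasts.

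Between 2-d and 4-wk many genes of the liver differed. Among the enzymes 1 probe set of Tdo2 passed in both diets, and Kmo and 1 probe set of Kynu passed in higher-protein mice. With RNA quality as a covariate the count was 0 of 14 in both diets. Calls over all probe sets then also fell, from 3096 to 464 in lower-protein and from 3012 to 622 in higher-protein mice. RNA quality itself differed between durations, so this covariate cannot separate the 2. In lower-protein mice 1 of 14 member probe sets passed an adjusted p of 0.05, where 6.87% of all probe sets did, and 4 of 14 had an unadjusted p under 0.05, where 17.3% of all did. In higher-protein mice 3 of 14 passed after adjustment, where 6.69% of all probe sets did, and 7 of 14 had an unadjusted p under 0.05, where 18.5% of all did. The brightest probe set of Tdo2, the enzyme that commits tryptophan to the kynurenine pathway, ranged from 13.27 through 13.46 to 13.61 in lower-protein 4-wk mice and from 13.27 through 13.50 to 13.66 in higher-protein 4-wk mice. In each diet 11 of 12 mice at 4-wk lay above the 2-d median, and the level rose by 0.17 in both (+0.17, SE 0.05, adjusted p = 0.0325 in lower-protein mice, and +0.17, SE 0.05, adjusted p = 0.0291 in higher-protein mice, limma). The second Tdo2 probe set by signal gave -0.06 and -0.12, and the third gave +0.25 and +0.19, and neither of these probe sets passed (adjusted p = 0.722 and 0.291 for the second, 0.0753 and 0.23 for the third).

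The probe sets of Tdo2 that were higher at 4-wk also followed RNA quality, measured as how far the 3′ exceeded the 5′ signal of the array's Gapdh and beta-actin controls, which is larger in more degraded RNA. That measure was 0.48 ± 0.19 (SD, n = 12) in lower-protein and 0.48 ± 0.13 (SD, n = 11) in higher-protein mice at 2-d, and 0.24 ± 0.07 (SD, n = 12) and 0.27 ± 0.11 (SD, n = 12) at 4-wk. Across 47 mice, with group means removed, the brightest Tdo2 probe set correlated with it at r = -0.56 (Spearman rho = -0.48, permutation p = 0.00027 and 0.00129, adjusted over 14 probe sets 0.00189 and 0.00903). The r was -0.60 within 2-d mice and -0.48 within 4-wk mice, and -0.46 without the 2 mice farthest from the median of the quality measure. The third probe set gave r = -0.65 (rho = -0.60, permutation p = 4e-05 and 2e-05, adjusted p = 0.00056 and 0.00028), with -0.61 without those mice. The second gave r = +0.22 (rho = -0.04, permutation p = 0.197 and 0.799, adjusted p = 0.391 and 0.952), with 0.00 without those mice. With the quality measure as a covariate, the rise of the brightest Tdo2 probe set was +0.05 (adjusted p = 0.971) in lower-protein and +0.07 (adjusted p = 0.779) in higher-protein mice. The call in lower-protein mice was also lost without A09 (+0.15, adjusted p = 0.0591).

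**Figure D3:**
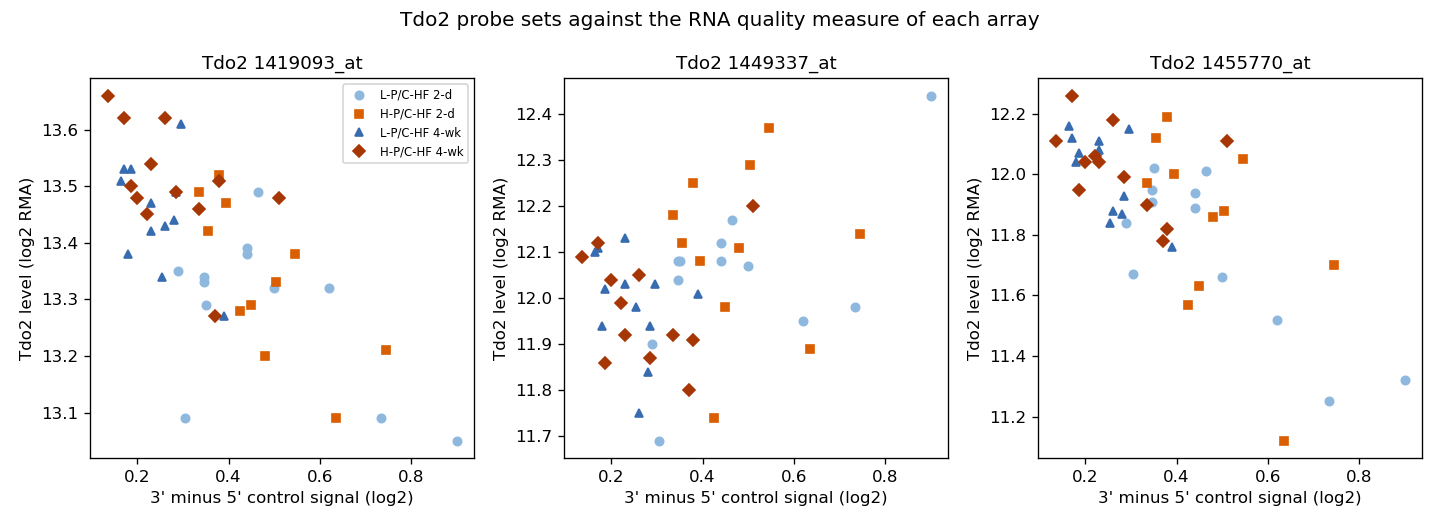
Levels of the 3 Tdo2 probe sets (log2 RMA, vertical axes) against the 3′ minus 5′ control signal of each array (log2, horizontal axes), 1 point per mouse and 1 symbol per group. The 2-d mice reach higher control values than the 4-wk mice, and the probe sets on the left and right fall along that axis (r = -0.56 and -0.65 with group means removed) while the middle one has r = +0.22.

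Kmo fell in higher-protein mice between 2-d and 4-wk (-0.29, SE 0.07, limma adjusted p = 0.00304), and all 12 mice at 4-wk lay below the 2-d median. In lower-protein mice all 12 at 4-wk also lay below the 2-d median, and the difference was -0.20 (SE 0.06, adjusted p = 0.0524). The correlation of Kmo with the quality measure did not pass (r = +0.15, rho = +0.06, permutation p = 0.4 and 0.693, adjusted p = 0.555 and 0.952, and r = -0.05 without the 2 farthest mice). With it as a covariate the difference in higher-protein mice was -0.25 (adjusted p = 0.0898).

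The dimmer probe set of Kynu fell in higher-protein mice (-0.37, SE 0.10, adjusted p = 0.0189), with 11 of 12 mice below the 2-d median. Its brighter probe set gave -0.06 (adjusted p = 0.792), so this fall rests on 1 of 2 probe sets. With the quality covariate the value was -0.22 (adjusted p = 0.565).

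Further enzymes were lower at 4-wk in higher-protein mice without passing. Hal differed by -0.34 (adjusted p = 0.063), Tat by -0.33 (adjusted p = 0.115) and Fah by -0.15 (adjusted p = 0.0777). All 12 Tat values and all 12 Fah values at 4-wk lay below the 2-d median of that diet. In lower-protein mice the same enzymes differed by -0.09, +0.06 and -0.05.

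Markers of other liver cell types moved with duration. All 12 Kupffer cell and macrophage markers were higher at 4-wk in each diet, with a median of +1.12 in lower-protein and +0.93 in higher-protein mice. After adjustment 12 and 10 of them passed (limma), where 6.87% and 6.69% of all probe sets did. No values with the RNA quality covariate are given for these markers. Their mean level per mouse was 8.18 to 9.359 in lower-protein and 8.168 to 9.033 in higher-protein mice at 2-d, and 9.004 to 10.491 and 8.322 to 9.876 at 4-wk. The 9 sinusoidal endothelial markers had medians of +0.66 and +0.47 and the 9 stellate cell markers of +0.34 and +0.23. The hepatocyte markers had medians of -0.03 and -0.04. In whole liver, fewer cells of a type and less RNA per cell cannot be told apart, and the part of these markers in the changes of Tdo2, Kmo and Kynu was not tested. Between diets the macrophage markers were lower in higher-protein mice, 12 of 12 at each duration, with medians of -0.13 at 2-d and -0.33 at 4-wk. None passed after adjustment, and those with the smallest p at 4-wk were Marco (-0.62, p = 0.00189), Adgre1 (-0.38, p = 0.00473), Timd4 (-0.40, p = 0.0149) and Lyz2 (-0.45, p = 0.0167). Their part in the diet differences of the enzymes was not tested.

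Many of the enzymes correlated with each other from mouse to mouse within groups. Of 36 pairs of members, 20 had a correlation with an adjusted p under 0.05 (permutation of mice within groups, 100000 resamples, two-sided, brightest probe sets), 15 of them positive and 5 negative. Of the 36 pairs 7 had a negative r, all of them with Uroc1. The 5 that passed were those of Uroc1 with Hgd, Fah, Tdo2, Kmo and Kynu. The 28 pairs without Uroc1 all had a positive r, which follows from leaving out the gene with the negative values. Without A09, 26 of these 28 pairs were positive (Hpd and Fah with Tdo2 were then at -0.03 each). The values of these mice were normalized between arrays by RMA, and the labels do not say whether the arrays were run together. The number of pairs that passed was 19 without A09. As a description, 22 of the 36 pairs had an r of at least 0.374 in size, the lowest that passed, and so did 32.4% of all pairs of genes on the array, while 53.7% of all pairs had an r above 0. Without A09 the count was 18 of 36 and the share of all pairs 33.6%.

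Hgd and Fah, of the tyrosine pathway, had the highest r, 0.82 (rho = 0.70, permutation p = 1e-05 for both, which is the smallest these resamples can give, adjusted p = 0.00018 and 0.00012). It was 0.86 within 2-d mice and 0.71 within 4-wk mice, and 0.63 without the 2 mice farthest from the Hgd median, one of which was A09. Hpd and Hgd had r = 0.76 (rho = 0.57, permutation p = 0.00078 and 0.00023, adjusted p = 0.00281 and 0.000828). This relation was 0.91 within 2-d mice and 0.18 within 4-wk mice, and it dropped to 0.41 without A09 and to 0.36 without A09 and A06, so its size rests on these mice. Hpd and Fah had r = 0.66 (rho = 0.42, permutation p = 0.00271 and 0.00488, adjusted p = 0.0061 and 0.0103), which was 0.80 within 2-d and 0.16 within 4-wk mice, 0.29 without A09 and 0.27 without A09 and A06, so it too rests on these mice. Tat had its highest r with Tdo2, 0.40 (rho = 0.37, permutation p = 0.00647 and 0.0139, adjusted p = 0.0123 and 0.0251), which was 0.57 within 2-d and 0.18 within 4-wk mice and 0.38 without the 2 farthest mice.

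Kmo and Hal, of different pathways, had r = 0.63 (rho = 0.52, permutation p = 3e-05 and 0.00037, adjusted p = 0.00036 and 0.00121), and it was similar within 2-d (0.65) and 4-wk mice (0.65) and 0.46 without the 2 farthest mice. Kmo and Uroc1 had the lowest r, -0.50 (rho = -0.56, permutation p = 0.00012 and 4e-05, adjusted p = 0.00108 and 0.00036), with -0.50 again without the 2 farthest mice. The probe sets of Uroc1 did not vary alike, with r = -0.32 between them (rho = -0.36, permutation p = 0.0387 and 0.0218, adjusted over 6 such pairs 0.0543 and 0.0262, and -0.30 without the 2 farthest mice). The negative correlations therefore hold for the brighter Uroc1 probe set and were not computed for the other.

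**Figure D4:**
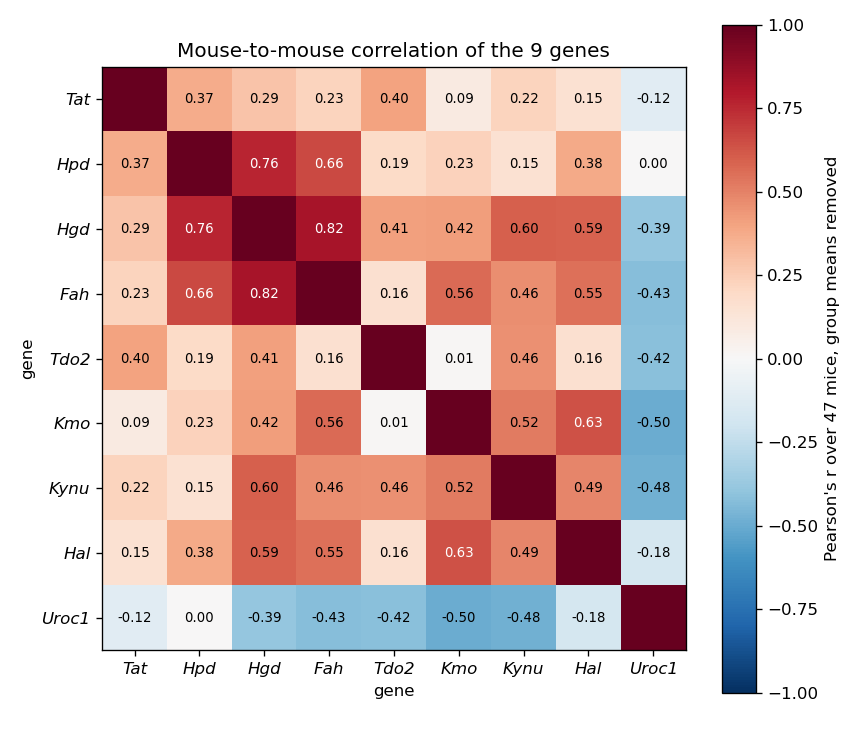
Pearson's r between the brightest probe sets of the 9 genes over 47 mice with group means removed, from -1 (blue) to 1 (red), with the value in each cell. The pairs among Hpd, Hgd and Fah have 0.66 to 0.82, of which the values of Hpd fall to 0.41 with Hgd and 0.29 with Fah without array A09, and Uroc1 is below 0 with every gene but Hpd (0.00).

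Among 18192 other genes, those most like each enzyme across the 47 mice are given as a description. The r values and ranks include A09, which was lowest in its group for Hpd, Hgd and Fah, and were not computed without it. The most like fellow enzyme ranked 7 for Fah (Hgd), 15 for Hgd (Fah) and 19 for Hpd (Hgd), 243 for Tat (Tdo2) and Hal (Kmo), 1283 for Kmo (Hal), 1455 for Tdo2 (Kynu), 1884 for Kynu (Hgd) and 6731 for Uroc1 (Hpd), so most enzymes had many genes more like them than any other member. For Hgd they were Aadac (r = 0.90), Serpinf1 and Ugt2a3, for Hpd Cyp2c54 (r = 0.88), Ahcy and Upp2, and for Fah Mthfd1 (r = 0.88), Ftcd and Afmid. Ftcd and Afmid are themselves enzymes of histidine and tryptophan breakdown. For Hal the most like gene was Amdhd1 (r = 0.85), the enzyme that follows urocanase in the histidine pathway, then Pecr and Echdc3. For Tat they were Slc25a51 (r = 0.84), Shld2 and Kcnk5, and for Tdo2 Lactb2 (r = 0.84), Agmo and Atp5b. For Kmo they were Mzt2 (r = 0.89), Mrpl23 and Iqgap2, for Kynu Hbp1 (r = 0.83), Abt1 and Cul2, and for the brighter Uroc1 probe set Car7, Shh and Aif1l (r = 0.87 each).

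Other genes of these pathways were described in the same way, through their brightest probe sets, and none of them passed after adjustment in either diet comparison. Of 10 further tryptophan genes, 8 were higher in higher-protein mice at 2-d with a median of +0.07. Afmid, which hydrolyses formylkynurenine, differed by +0.43 (SE 0.15, limma p = 0.00455) and Aadat, an aminotransferase of kynurenine, by +0.24 (SE 0.10, p = 0.0173), and at 4-wk these values were +0.10 and 0.00. Of 7 further phenylalanine and tyrosine genes, 6 were higher at 2-d with a median of +0.09 and none had an unadjusted p under 0.05, while at 4-wk Qdpr, which recycles the biopterin cofactor, differed by +0.13 (p = 0.0294). Of 5 further histidine genes, Ftcd, which passes the formimino group to folate, differed by +0.14 (SE 0.06, p = 0.0211) at 2-d and by -0.03 at 4-wk. Of 8 carriers of these amino acids, Slc43a1 differed by +0.43 (SE 0.14, p = 0.00297) and Slc38a3, a glutamine and histidine carrier, by +0.12 (SE 0.05, p = 0.0244) at 2-d, and by +0.25 and +0.10 at 4-wk.

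Genes that respond to glucocorticoids and cAMP, as Tat does, had a median of +0.15 at 2-d and -0.05 at 4-wk over 12 measured genes, and none of the 12 reached an unadjusted p under 0.05 in either. Between 2-d and 4-wk their median was -0.21 in lower-protein mice and -0.48 in higher-protein mice. After adjustment 2 fell and 1 rose in lower-protein mice, where 6.87% of all probe sets passed (limma). In higher-protein mice 5 fell and 1 rose, where 6.69% of all probe sets passed. No values with the RNA quality covariate are given for these genes. In higher-protein mice Dusp1, a phosphatase of MAP kinases, fell by 1.27 on the log2 scale (adjusted p = 5.66e-06) and Igfbp1, which binds insulin-like growth factors, fell by 1.16 (adjusted p = 0.000347), while the kinase Sgk1 rose by 0.72 (adjusted p = 7.64e-05). These 3 genes also passed in lower-protein mice, and they are named after their values were seen. Tat, at -0.33 in higher-protein and +0.06 in lower-protein mice, did not pass in either.

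None of the periportal or pericentral genes passed after adjustment at 2-d or at 4-wk between diets. Of 9 genes of periportal hepatocytes, the cells in which urea is made and amino acids are broken down at a high rate, 7 were higher at 2-d with a median of +0.10. Aldh1b1 differed by +0.43 at 2-d (p = 0.00245) and +0.43 at 4-wk (p = 0.00182), Cps1, the first enzyme of the urea cycle, by +0.23 (p = 0.0013) and +0.07, and Arg1, its last, by +0.10 (p = 0.0143) and +0.07. Of 12 pericentral genes, Oat, ornithine aminotransferase, differed most, by +0.44 at 2-d (SE 0.09, limma p = 1.37e-05, adjusted p = 0.0638) and +0.29 at 4-wk (p = 0.00176). Averaged over durations Oat was higher by 0.36 in higher-protein mice (SE 0.06, adjusted p = 0.00571), the 1 gene of these 2 lists that passed there. Lhpp differed by +0.25 (p = 0.00378) at 2-d and +0.18 (p = 0.0256) at 4-wk, and Gstm3 by 0.00 and +0.23 (p = 0.0135).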

How the data were processed

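Liver RNA of 48 mice was hybridised to Affymetrix mouse arrays, 1 per mouse. The deposited values are log2 values of RMA, run by the authors, with background correction, normalization between arrays and 1 value per probe set; the log base was read from the range. Depth does not apply, and the number of arrays limits precision. Of 45101 probe sets 64 controls were left out. A model with 4 group coefficients was fitted to the other 45037 with limma 3.58.1 in R 4.3.3 (trend over mean level), two-sided, with Benjamini-Hochberg adjustment at 0.05 per comparison. Label numbers did not pair mice: same-numbered mice had a median correlation of 0.019. Diets were matched to labels through the label that names high protein (H-P/C-HF). Genes were named by GEO's platform annotation, and 142 of 159 list entries were measured. All 9 genes with all their probe sets are named, up to 4 genes per other list at an unadjusted p under 0.05 in a diet comparison, and the 3 most alike genes per enzyme. Members and lists were chosen with earlier results of these data known. Alternatives covered arrays, weights, scaling, filters, RNA quality, replicate block and error models; leaving out A09 was added after seeing the data. The fit was tested on simulated data with shifts in the H-P/C-HF 2-d group. At an adjusted p under 0.05 it recovered 36% of shifts of 0.25 log2 units, 88% of 0.5 and 100% of 1.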

Additional observations from a re-analysis of the deposited data

Results flagged for a closer look

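Array B25, which the comparisons leave out, held 1 member value above every L-P/C-HF 2-d mouse. The brighter Uroc1 probe set read 12.37 on B25, and the highest L-P/C-HF 2-d mouse was at 12.31. With B25 included the 2-d difference of that probe set was +0.20 (limma p = 0.062, adjusted p = 0.987). In no member did the test of the difference between diet effects pass after adjustment.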

How the results depend on the processing

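The 2-d count of called member probe sets (0) and the 4-wk count (0) were unchanged under every alternative run, except that the pooled error called 2 at 2-d. For the difference of diet effects (0) the pooled error called 1. For the average over durations (0) the count was 3 with the pooled error. It was 1, the brighter Hgd probe set, without A01, A09 and A24, with array weights and with cyclic loess. The same held without A09, with or without the RNA quality covariate. For 4-wk minus 2-d in L-P/C-HF (1) it was 0 with B25 included, without A01, A09 and A24, with median centring, with the RNA quality covariate, without A09 with or without that covariate, with separate fits, with ANOVA and with the pooled error, 2 with array weights and with a mean level of at least 6, and 3 with cyclic loess. For 4-wk minus 2-d in H-P/C-HF (3) it was 5 without A01, A09 and A24, with cyclic loess and with ANOVA, 6 with array weights, separate fits and the pooled error, 0 with the RNA quality covariate and 1 with that covariate and without A09. The cause was not tested. Of the 36 correlations, 19 to 24 passed over the alternatives. With the replicate number as a block, the H-P/C-HF duration count was 5, Fah and Hal being added, and the block changed no other count of calls by over 1.5 times; same-numbered mice had a correlation over 0.1 in 26 of 69 pairs, and 3 of 47 arrays correlated best with their own number. No called difference reversed, and of 1171 values under the alternatives for differences that had not passed, 42 changed sign, among them the third Tdo2 probe set between durations, which was -0.01 and -0.03 with the RNA quality covariate. Signals of dim probe sets and the single array per mouse limit what can be seen.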
